A study of Homo sapiens with 6 samples.

Results

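Mitochondrial ribosomal proteins were followed at the transcript level in KHM-5M cells, an established line from an anaplastic thyroid cancer, as the genes whose symbol begins with MRPL or MRPS and a number. The rule found 78 of the 17687 genes in the table, 49 named MRPL and 29 named MRPS, and it used no measured value. All 78 passed edgeR's filter on low counts, which kept 14005 genes. RNA was sequenced from control cells given PBS, from cells given sodium selenite (SS), and from cells given SS together with N-acetylcysteine (NAC), a thiol antioxidant, with 2 libraries in each of the 3 groups. The labels give neither the exposure time nor a dose with a unit, and while the paper's methods call the replicates biological, nothing says that they came from separate cultures, so p-values measure only the spread between these libraries.

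The mitochondrial ribosome translates the messages of the mitochondrial genome, all of which encode subunits of the oxidative phosphorylation complexes. Its RNA is made inside the organelle, while its proteins are encoded in the nucleus, translated in the cytosol and imported. Many of these proteins descend from bacterial ribosomal proteins, and others were added during the evolution of mitochondria.

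The libraries held 17645545 and 22016655 expected counts in control, 23493415 and 23810056 in SS, and 23682740 and 22617180 in SS+NAC. Every member had counts in every library, the lowest being 324 counts, for MRPS36. Replicates differed by more than sampling noise, with a chi-square per degree of freedom of 3.1 in control, 7.35 in SS and 12.2 in SS+NAC, and libraries were not merged. Among thyroid markers, PAX8 was present at 104 to 134 TPM, the share of transcripts per length, and HHEX at 25.9 to 29.8 TPM, while NKX2-1 stayed at or under 0.2 TPM. Of 5 epithelial markers, KRT8 lay between 977 and 1398 TPM and KRT18 between 731 and 1099 TPM, while EPCAM reached at most 6.07 TPM, KRT19 2.19 TPM and CDH1 0.29 TPM. Among fibroblast markers COL1A1 lay between 167 and 273 TPM, while LUM reached at most 8.8 TPM, PDGFRB 5.74 TPM, DCN 0.19 TPM and COL3A1 0.02 TPM. Among immune markers CD68 lay between 70.5 and 109 TPM and CD14 at up to 2.14 TPM, with PTPRC and CD3E under 1 TPM. Of the 4 endothelial markers none reached a mean of 1 TPM. KRT8 (1266 and 1398 TPM) and KRT18 (987 and 1099 TPM) were higher in both SS libraries than in the other 4. PAX8 (116 and 104 TPM), COL1A1 (179 and 167 TPM), EPCAM, LUM, PDGFRB and CD68 were lower in both. The cause was not tested.

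In TPM, which allows levels of different genes to be compared per length, the members were abundant. Their median in control was 97.9 TPM, against 15.2 TPM over all tested genes, and 77 of 78 lay at or above that median. MRPL51 was the highest, at 381 and 415 TPM in the control libraries, followed by MRPL3, the counterpart of a bacterial protein next to the catalytic centre, at 294 and 285 TPM. MRPL12, which forms the stalk that contacts translation factors, had 262 and 277 TPM. MRPL19 was the lowest, at 11.4 and 10.9 TPM, below MRPS25 at 16.5 and 15.2 TPM. The median was 101 TPM over the 51 genes of the large subunit and 93 TPM over the 27 of the small subunit. Complex I subunits had a median of 161 TPM and cytosolic ribosomal proteins one of 2197 TPM.

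Added up, the members took 0.874% and 0.875% of all TPM in the control libraries, 0.961% and 0.993% in SS, and 0.865% and 0.847% in SS+NAC. Both SS libraries lay above the other 4. In bulk RNA, a change in the cells present and a change in RNA per cell cannot be told apart.

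The genes of the members are spread over 21 chromosomes in GENCODE release 29 on GRCh38. For 29 of 78 (37.2%) the start lay within 1000 bases of the start of a protein-coding gene on the opposite strand, beside 16.6% of 13674 tested protein-coding genes. MRPL46 and MRPS11 form such a pair on chromosome 15, with starts 34 bases apart. Exons of 34 members share bases with another protein-coding gene, among them MRPL19 with GCFC2 and MRPS25 with NR2C2. The release lists 75 pseudogenes named after members, and reads from these or from overlapping genes cannot be told apart from those of the members here.

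Promoter windows from RefSeq on GRCh38.p14, from 250 bases before to 50 bases after a start, were matched for 69 of the 78 members. No window was matched for MRPL2, MRPL10, MRPL13, MRPL15, MRPL21, MRPL23, MRPL35, MRPS28 and MRPS36. The letters of 5 motifs were searched on both strands. CCGGAAG, the core bound by ETS factors, was found for 30 members (43.5%) and 21.3% of 10885 tested genes. AAGATGGCG, bound by YY1, was found for 13 members (18.8%) and 4.42% of tested genes, and CGCANGCG, the palindrome of NRF1, for 15 members (21.7%) and 21.0% of tested genes. The E-box CACGTG was found for 9 members (13.0%) and 12.5%, and TATAAA for 3 (4.35%) and 8.67%. Over all 35116 windows of the table the shares were 10.3% for ETS, 1.75% for YY1, 10.0% for NRF1, 7.26% for the E-box and 11.5% for TATAAA. A match describes the letters and is not a site of binding.

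**Figure D1:**
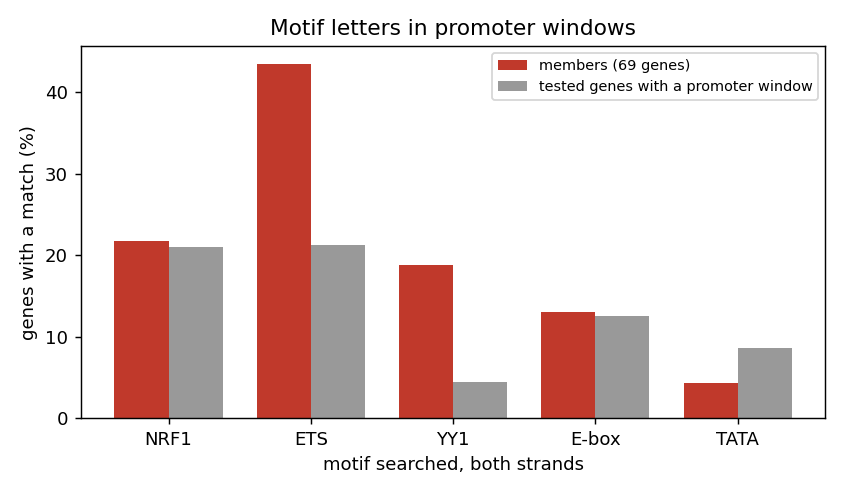
Bars give the percentage of genes whose promoter window holds the letters of each motif, for the 69 matched members and for 10885 tested genes, from 0. The ETS bars stand at 43.5% and 21.3%, and the YY1 bars at 18.8% and 4.42%.

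The windows of 4 members are shown because, in the results below, these genes rose most (MRPL54), were the most abundant (MRPL51), lay farthest above other genes of similar length (MRPL22) or were the longest (MRPL19). They lie at chr19:3762432-3762731 on the plus strand, chr12:6493213-6493512 on the minus strand, chr5:154940823-154941122 on the plus strand and chr2:75646533-75646832 on the plus strand. Capitals mark the motif letters: ETS and TATAAA in MRPL54, ETS at 2 places in MRPL51, and the E-box, NRF1 and YY1 in MRPL22. MRPL19 holds none of the 5.
MRPL54: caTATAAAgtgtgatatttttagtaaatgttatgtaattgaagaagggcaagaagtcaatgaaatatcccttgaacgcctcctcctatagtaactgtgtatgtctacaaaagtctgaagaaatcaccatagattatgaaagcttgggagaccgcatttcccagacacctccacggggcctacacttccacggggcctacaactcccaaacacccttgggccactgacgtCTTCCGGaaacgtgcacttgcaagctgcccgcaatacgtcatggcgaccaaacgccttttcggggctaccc
MRPL51: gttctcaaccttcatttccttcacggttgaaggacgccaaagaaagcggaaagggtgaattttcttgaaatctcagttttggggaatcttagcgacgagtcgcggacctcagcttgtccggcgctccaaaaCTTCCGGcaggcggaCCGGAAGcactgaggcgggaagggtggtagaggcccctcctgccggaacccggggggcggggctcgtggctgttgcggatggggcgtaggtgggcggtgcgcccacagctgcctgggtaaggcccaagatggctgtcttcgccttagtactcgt
MRPL22: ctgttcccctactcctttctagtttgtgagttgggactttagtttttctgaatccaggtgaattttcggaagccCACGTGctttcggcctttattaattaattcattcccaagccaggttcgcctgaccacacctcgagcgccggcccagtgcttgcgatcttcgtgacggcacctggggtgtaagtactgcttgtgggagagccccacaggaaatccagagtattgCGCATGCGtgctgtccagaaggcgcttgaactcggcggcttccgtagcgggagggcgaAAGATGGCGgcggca
MRPL19: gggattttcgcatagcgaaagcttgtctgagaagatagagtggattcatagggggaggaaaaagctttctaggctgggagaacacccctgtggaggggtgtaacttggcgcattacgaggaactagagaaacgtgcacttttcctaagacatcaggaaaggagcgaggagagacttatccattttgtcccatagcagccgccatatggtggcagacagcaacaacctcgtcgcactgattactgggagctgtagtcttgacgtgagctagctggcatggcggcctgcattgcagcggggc

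Genes of the members were then compared between SS and control in CPM, counts scaled to the library size after adjustment by the trimmed mean of M values. Of the 78 members, 67 rose and 0 fell at an adjusted p of at most 0.05 in the quasi-likelihood test of edgeR, adjusted after Benjamini and Hochberg (BH). Over all 14005 tested genes, 40.0% were called, 18.6% higher and 21.4% lower. The median log2 fold change was 0.44 over the members and 0.00 over all tested genes. The count was 38 (48.7%) without SS replicate 2 and 43 (55.1%) without control replicate 1, where 22.1% and 21.8% of all genes tested were called. For 72 members the lowest SS value exceeded the highest control value, as for 36.3% of all tested genes, and for 2 it was the reverse, as for 36.9%.

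**Figure D2:**
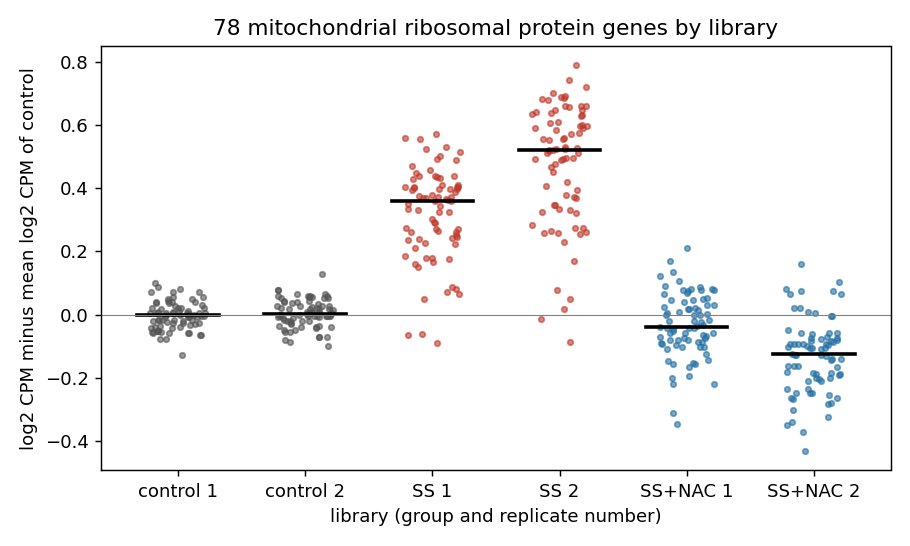
Each point is 1 of the 78 members in 1 library, as log2 CPM minus the mean log2 CPM of the 2 control libraries, and each bar is the median. For SS the library medians are 0.36 and 0.52, beside -0.04 and -0.13 in those of SS+NAC.

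The size of this rise depends on the scale. When libraries were scaled to equal sums of counts per effective length, as TPM does, the median over all tested genes moved by -0.27. The members then had a median of 0.17, with 22 higher and 3 lower, while all tested genes split into 564 higher and 5611 lower, against 2605 and 3004 with the scaling used above. This scaling was added after the data had been seen.

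MRPL54 rose most. Its CPM were 33 and 31.8 in control, 48.2 and 56 in SS, and 33.3 and 32.6 in SS+NAC. Both SS libraries were above the other 4, and the log2 fold change over control was 0.68 (SE 0.0888, n = 2 and 2, BH-adjusted p = 0.00039 in edgeR's quasi-likelihood test). MRPL24 and MRPL14, counterparts of bacterial proteins of the large subunit, rose by 0.62 each on the log2 scale. MRPL24 had 84 and 90.7 CPM in control against 126 and 144 CPM in SS, and MRPL14 had 69.8 and 69.9 CPM against 103 and 112 CPM. MRPL33, the shortest member, rose by 0.59, from 24.6 and 22.3 CPM to 33.2 and 37.5 CPM. With the length offset described below, the values of MRPL54, MRPL24, MRPL14 and MRPL33 were 0.14, 0.16, 0.18 and 0.00, and none passed.

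In the small subunit, 24 of 27 genes rose, with a median log2 fold change of 0.39. In the large subunit 43 of 51 rose, with a median of 0.46, while 18.6% of all tested genes rose. The genes with bacterial homologues (40 of 45 higher, median 0.45) and the mitochondria-specific ones (25 of 31, median 0.42) were not tested against each other. With the length offset described below, 3 genes of each subunit were called, or 11.1% of the small and 5.88% of the large. For bacterial homologues and mitochondria-specific genes the shares were 11.1% and 3.23%, beside 9.23% of all tested genes called in either direction. Set against genes of similar length, as described below, 36 of the 45 and 13 of the 31 lay higher in SS versus control, with medians of 0.05 and -0.01. In SS versus SS+NAC, 40 of the 45 and 25 of the 31 lay above genes of similar length, with medians of 0.15 and 0.10. The paralogs MRPS18A, MRPS18B and MRPS18C, all counterparts of the same bacterial protein, rose by 0.45, 0.41 and 0.53. With the length offset described below their values were 0.06, 0.11 and 0.11, and none passed. MRPS36, which is also known as KGD4, a component of the 2-oxoglutarate dehydrogenase complex, went from 18 and 17.1 CPM in control to 25.8 and 27.2 CPM in SS. The log2 ratio was 0.59 (SE 0.0892, BH-adjusted p = 0.000739 in edgeR's quasi-likelihood test). With the length offset MRPS36 had 0.24 and did not pass. By its symbol MRPS36 was counted among the 27 genes of the small subunit.

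The 11 members that did not pass were MRPL1, MRPL3, MRPL19, MRPL30, MRPL35, MRPL42, MRPL50, MRPS25, MRPS27, MRPS30 and MRPS31. MRPS27, a pentatricopeptide repeat protein named after its values were seen, had 138 and 139 CPM in control and 130 and 137 CPM in SS. The log2 ratio was -0.06 (SE 0.0708, BH-adjusted p = 0.565 in edgeR's quasi-likelihood test). MRPL19 had 45.6 and 44.3 CPM in control and 43.1 and 42.3 CPM in SS. Both SS libraries of these 2 genes lay below both control libraries, and neither difference passed. With the scaling to equal sums of counts per length MRPS27 was called lower in SS, at -0.33 (BH-adjusted p = 0.0031 in edgeR's quasi-likelihood test).

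**Figure D3:**
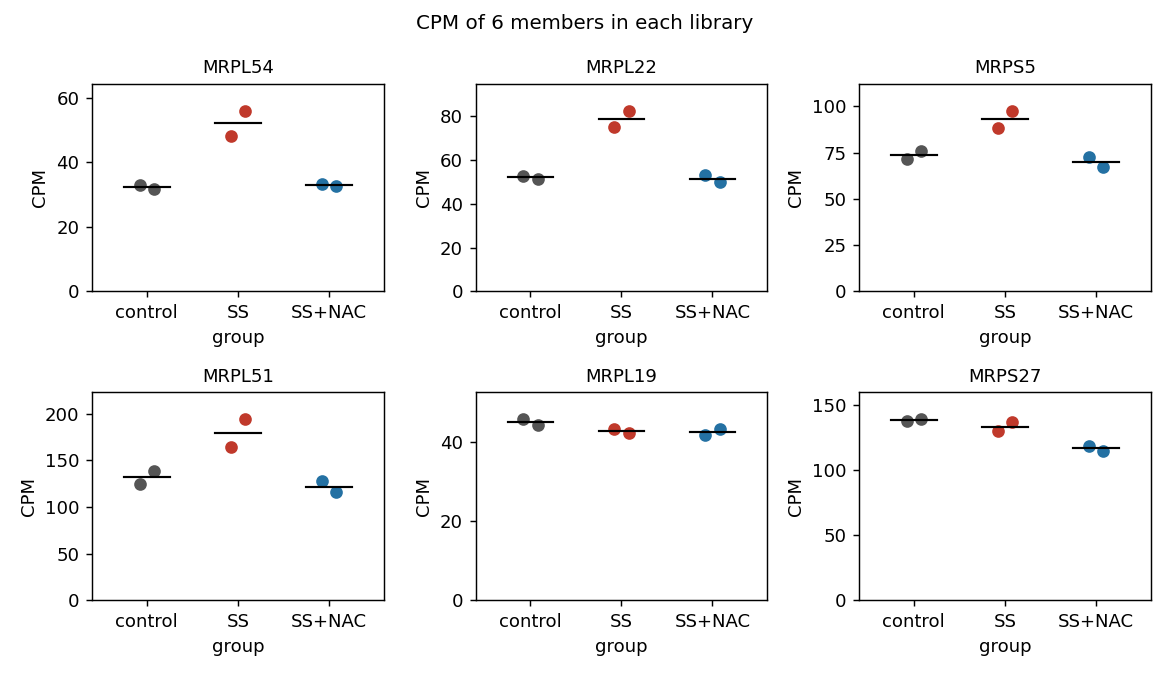
Points are the CPM of 6 members in each library and bars are group means of 2 libraries, with each vertical axis starting at 0. MRPL54, MRPL22, MRPS5 and MRPL51 have both SS libraries above the other 4, while MRPL19 and MRPS27 do not.

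Across the transcriptome, fold changes in SS went with transcript length, so the members were set beside genes of similar effective length. The effective length, the number of positions from which a read can start, was derived from the deposited counts and FPKM. Its median was 1143 bases over the members and 3048 bases over all tested genes, and 65 of 78 members were under 2000 bases, a cut chosen after the data were seen. Spearman's rho between length and the log2 ratio of SS to control was -0.67 across the 78 members and -0.68 across 13927 other tested genes, a description across genes that share the same libraries.

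In the shortest eighth of tested genes, 45 of 49 members rose, with a median of 0.50. The 1702 other genes there had a median of 0.45, and 68.7% of them rose. In the next eighth, 14 of 16 members rose, with a median of 0.35 against 0.27 for 1735 others, of which 39.9% rose. The 200 nearest non-member genes in length were taken as length neighbours of each member. The median log2 fold change of these neighbours, taken over the members, was 0.42, and 54.3% of the neighbour entries rose. The eighths and the neighbours were matched in length but not in level, so the shares called are not matched for level. The control median was 97.9 TPM over the members and 15.2 TPM over all tested genes.

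Relative to its own neighbours, a member lay higher by a median of 0.04, with 50 above and 28 below. The spread between replicates of this quantity was 0.0374. It was 0.00 and 0.01 in the control libraries, 0.03 and 0.09 in SS, and -0.04 and -0.11 in SS+NAC, each taken as the deviation from the mean of all libraries.

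**Figure D4:**
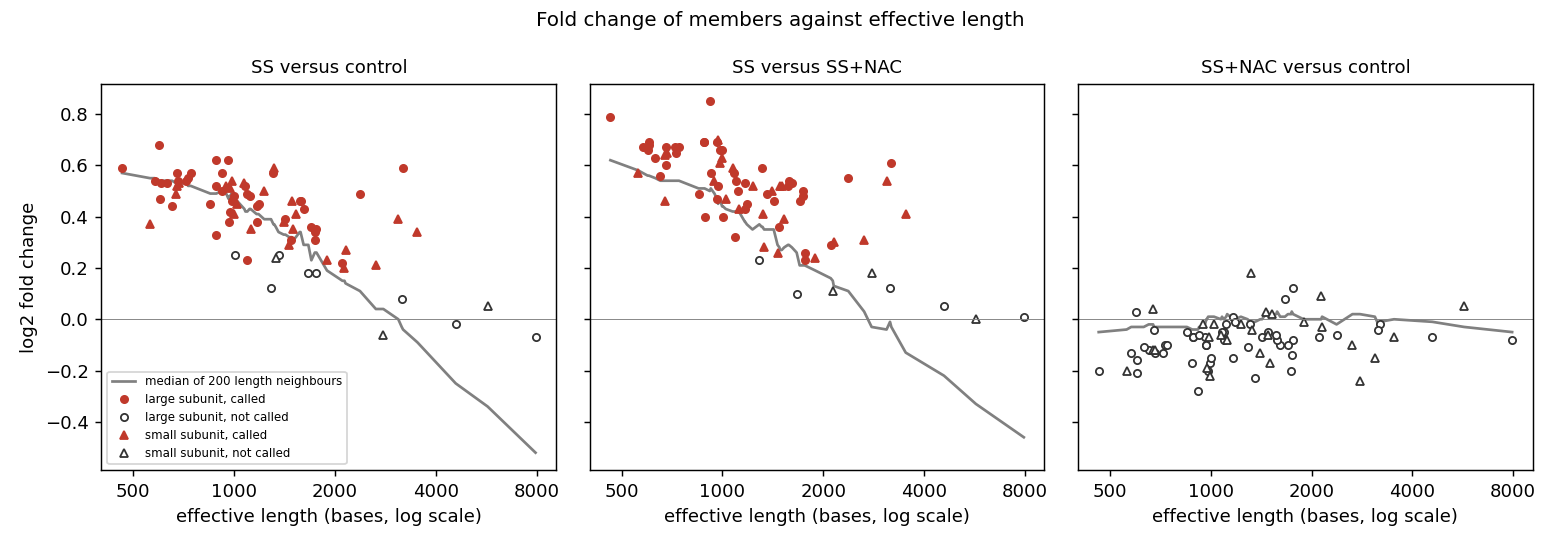
The log2 fold change of each member is plotted against effective length on a log axis for the 3 comparisons, with circles for the large and triangles for the small subunit, filled where the BH-adjusted p of edgeR's quasi-likelihood test was at most 0.05. The grey line is the median of the 200 length neighbours, and the members above it number 50 in SS versus control, 67 in SS versus SS+NAC and 10 in SS+NAC versus control.

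With a length offset in the fit, which removes the trend of each library with length, 6 of 78 members (7.69%) passed in SS over control, all of them higher. Over all tested genes the share was 9.23%, with 587 higher and 705 lower. The median of the members was then 0.05. The 6 were MRPL22, MRPL19, MRPS5, MRPS25, MRPL17 and MRPS11, and each is longer than 2000 bases. Among the members a relation to length of the opposite sign remained in this fit, with a Spearman's rho of 0.47 across the 78 genes, which are not independent.

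MRPL22, whose bacterial counterpart lines the tunnel through which the nascent chain leaves, lay farthest above its neighbours. Its CPM were 52.7 and 51.3 in control, 74.7 and 82.2 in SS, and 52.8 and 49.9 in SS+NAC, with SS above the other 4 libraries. Its log2 fold change over control was 0.59 (SE 0.0787, BH-adjusted p = 0.000429), and with the offset it was 0.65 (SE 0.076, BH-adjusted p = 0.00139), both in edgeR's quasi-likelihood test. The 200 genes nearest to its 3195 bases had a median of -0.04.

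MRPS5, a counterpart of a bacterial protein of the small subunit, had CPM of 71.5 and 75.8 in control, 88.5 and 97.7 in SS, and 72.8 and 67.3 in SS+NAC, again highest in SS. It rose by 0.34, and by 0.45 with the offset (SE 0.08, BH-adjusted p = 0.00846 in edgeR's quasi-likelihood test). Without the offset the call was lost when control replicate 1 or SS replicate 2 was left out, with log2 fold changes of 0.29 and 0.26. MRPL17 went from 86.1 and 84 CPM in control to 110 and 128 CPM in SS, and its log2 fold change with the offset was 0.39.

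The offset turned the sign for MRPL19, the longest member at 7944 bases. Its log2 fold change was -0.07 without the offset and 0.40 with it (SE 0.0682, BH-adjusted p = 0.00712 in edgeR's quasi-likelihood test), while its length neighbours had a median of -0.52. With the scaling to equal sums of counts per length it was -0.34 (BH-adjusted p = 0.0154 in edgeR's quasi-likelihood test), so the length offset and this scaling gave calls in opposite directions. MRPS25 had 50.4 and 46.6 CPM in control and 50.1 CPM in both SS libraries, and its value moved from 0.05 to 0.40. For these 2 genes the CPM fit gave no call and the offset fit gave one.

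The derived effective length itself differed between libraries by over 5% for 7 members, and the cause was not tested. For MRPS25 it was 6074 and 5985 bases in control, 5355 and 5256 bases in SS, and 5971 and 5804 bases in SS+NAC. MRPL35 had 1337 and 1365 bases in control and 1240 and 1232 bases in SS. MRPS11 had 2851 and 2954 bases in control, 3099 and 3098 bases in SS, and 3242 and 3315 bases in SS+NAC. The median range over all members was 0.366%.

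Below their neighbours lay MRPL35, MRPL50, MRPL39 and MRPS17, with differences of -0.27, -0.21, -0.19 and -0.18. None of these 4 passed with the offset. MRPL39 had 30.7 and 29.1 CPM in control and 34.6 and 35.7 CPM in SS. The log2 ratio of 0.23 became -0.17 with the offset.

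The comparison of SS with SS+NAC shares the SS libraries with the one above, so the values are given side by side and not as separate evidence. Against SS+NAC, 70 of 78 members were higher in SS and 0 lower, where 19.6% of all tested genes were higher, 23.1% lower and 42.7% called in all. The median log2 fold change was 0.52 over the members and -0.03 over all tested genes. With the scaling to equal sums of counts per length, the median of all genes moved by -0.33, and 33 members were higher and 5 lower, with 525 higher and 6827 lower over all tested genes.

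MRPS6, a counterpart of a bacterial protein of the small subunit, had the lowest adjusted p and was named after its value was seen. Its CPM were 77.2 and 84.8 in SS, 49.7 and 50.2 in SS+NAC, and 57.3 and 56.5 in control, with a log2 fold change of 0.70 over SS+NAC (SE 0.0758, BH-adjusted p = 0.000232 in edgeR's quasi-likelihood test). MRPL34 differed most, by 0.85, with 48.1 and 56.7 CPM in SS against 31.9 and 26.1 CPM in SS+NAC. With the length offset the values were 0.25 for MRPS6 and 0.39 for MRPL34, and both passed.

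Members lay above their length neighbours by a median of 0.13 in this comparison, 67 of them above and 11 below. The median was 0.13 in the large subunit and 0.15 in the small subunit. It was 0.17 without SS+NAC replicate 1 and 0.10 without SS+NAC replicate 2. With the length offset, 16 members (20.5%) were called, 16 higher in SS and 0 lower, beside 14.4% of all tested genes, 986 higher and 1033 lower. Spearman's rho between length and the offset values was 0.43 across the 78 members. MRPL22 had a log2 fold change of 0.68, MRPS11 of 0.59, MRPS5 of 0.52 and MRPL17 of 0.47 there.

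**Figure D5:**
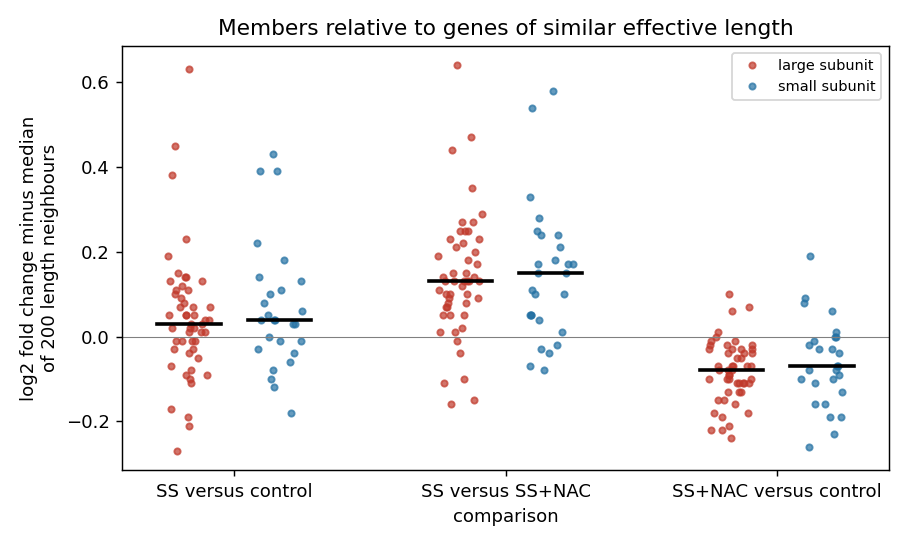
Each point is the log2 fold change of 1 member minus the median of its 200 length neighbours, in red for the large and blue for the small subunit, with bars at the medians. The medians of the large subunit are 0.03, 0.13 and -0.08 from left to right, and those of the small subunit 0.04, 0.15 and -0.07.

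Between SS+NAC and control, 0 of 78 members were called by edgeR's quasi-likelihood test. Over all tested genes this test called 2.01%, 1.36% higher and 0.657% lower. The Wald test of DESeq2 called 0 members and 311 genes in all. At an unadjusted p under 0.05 in edgeR's test there were 5 members and 16.1% of all tested genes. Without SS+NAC replicate 1, 2 members (2.56%) and 7.61% of the genes then tested were called. The median log2 fold change was -0.08 over the members and 0.00 over all tested genes, and 68 of 78 members had a negative value. The member median was -0.13 without SS+NAC replicate 1 and -0.04 without SS+NAC replicate 2. With the scaling to equal sums of counts per length the member median was -0.02, with 51 negative, beside 0.06 over all tested genes. Both SS+NAC libraries lay below both control libraries for 32 members, as for 23.6% of all tested genes, and above them for 3, as for 24.0% of all tested genes. MRPS27 had 119 and 115 CPM in SS+NAC, a log2 fold change of -0.24 over control (SE 0.0709, BH-adjusted p = 0.131 in edgeR's quasi-likelihood test).

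Other families of short nuclear genes for mitochondria and ribosomes were set beside the members. Over control, 36 of 39 tested complex I subunits rose in SS, with a median log2 fold change of 0.55, and 80 of 83 cytosolic ribosomal proteins, with a median of 0.50. Of all tested genes, 18.6% rose and 21.4% fell. Relative to length neighbours the medians were 0.07 and -0.03, against 0.04 for the members. Of 24 tested import genes of the TIMM and TOMM families, 11 rose, and their median against length neighbours was -0.05. With the scaling to equal sums of counts per length, 23 complex I subunits were higher and 2 lower, 53 cytosolic ribosomal proteins higher and 1 lower, and 1 import gene higher and 5 lower. Over all 14005 tested genes, 564 were higher and 5611 lower with this scaling. With the length offset, 2, 6 and 0 genes of these families were higher and 0 lower. These are 5.13%, 7.23% and 0%, beside 9.23% of all tested genes. Against SS+NAC, the medians relative to length neighbours were 0.10 for complex I subunits, 0.02 for cytosolic ribosomal proteins and 0.08 for import genes. The members had 0.13 there.

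The mitochondrial ribosome holds further proteins without an MRP symbol, and 4 of 5 rose in SS over control, or 3 higher and 1 lower with the scaling to equal sums of counts per length. Over all 14005 tested genes 18.6% rose, and with this scaling 564 were higher and 5611 lower. CHCHD1 went from 22.2 and 22.9 CPM to 32.1 and 33.9 CPM, GADD45GIP1 from 88.9 and 90.9 CPM to 122 and 139 CPM, and AURKAIP1 from 124 and 127 CPM to 163 and 204 CPM. Their log2 fold changes of 0.55, 0.54 and 0.55 became 0.07, 0.04 and 0.08 with the length offset, and none of these 3 passed there. DAP3, the other called gene, rose by 0.30, and had 0.03 with the offset. PTCD3, which was not called without the offset (-0.11), had 0.31 with it (BH-adjusted p = 0.0272 in edgeR's quasi-likelihood test). With the scaling to equal sums of counts per length PTCD3 was the 1 gene called lower, at -0.39. The length offset and this scaling thus gave calls in opposite directions.

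Of 23 genes for the assembly of the mitochondrial ribosome, 7 rose and 1 fell, with a median of 0.15, beside 18.6% and 21.4% of all tested genes. The direction depends on the scale, since with equal sums of counts per length 1 was higher and 5 lower, with a median of -0.13, and with the length offset 3 were higher and 0 lower. The shares called with this scaling and with the offset were 26.1% and 13.0%, beside 44.1% and 9.23% of all tested genes. YBEY, an endoribonuclease, had 15.3 CPM in both control libraries and 24.5 and 26.4 CPM in SS. The log2 ratio was 0.73 (SE 0.0916, BH-adjusted p = 0.000342 in edgeR's quasi-likelihood test). MALSU1, an assembly factor of the large subunit, and MPV17L2 rose by 0.41 and 0.35. With the length offset the values of YBEY, MALSU1 and MPV17L2 were 0.26, -0.09 and 0.01, and none passed. The 3 assembly genes that passed there, named after their values were seen, were RBFA (0.62), DDX28 (0.46) and MTG1 (0.44).

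Among 17 genes for mitochondrial translation factors, 7 rose and 5 fell, with a median of 0.09, beside 18.6% and 21.4% of all tested genes. With equal sums of counts per length 1 was higher and 8 lower, with a median of -0.18, and with the length offset 1 was higher and 0 lower. The shares called in these 2 fits were 52.9% and 5.88%, beside 44.1% and 9.23% of all tested genes. TSFM, the exchange factor of the elongation factor Tu, went from 47 and 44.8 CPM in control to 62.5 and 71.1 CPM in SS. The log2 ratio was 0.54, and 0.32 with the offset. LRPPRC, which stabilises mitochondrial messages, had 163 and 159 CPM in control and 125 CPM in both SS libraries, a log2 fold change of -0.37 (SE 0.0689, BH-adjusted p = 0.00212 in edgeR's quasi-likelihood test), and -0.05 with the offset. GUF1, a GTPase, changed by -0.38, and by -0.18 with the offset, where neither LRPPRC nor GUF1 passed.

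Of 12 tested genes for transcription of mitochondrial DNA and for regulators of mitochondrial genes, 4 fell (33.3%) and 0 rose. Of all tested genes, 21.4% fell and 18.6% rose. With equal sums of counts per length 8 were lower (66.7%) and 0 higher, and with the length offset 1 was lower (8.33%) and 0 higher. Over all 14005 tested genes, 5611 were lower and 564 higher with this scaling, and 705 lower and 587 higher with the offset. In these fits 44.1% and 9.23% of all tested genes were called in either direction. PPARGC1B, a transcriptional coactivator, went from 16 and 16.5 CPM to 10.4 and 9.32 CPM, a log2 fold change of -0.72, and GABPA, an ETS factor, from 34.2 and 30.8 CPM to 22.1 and 20.2 CPM, a log2 fold change of -0.62. With the offset these were -0.17 and -0.36, and neither passed. YY1 changed by -0.34, and by -0.29 with the offset (BH-adjusted p = 0.0344 in edgeR's quasi-likelihood test).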

How the data were processed

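RNA of KHM-5M cells was captured by oligo(dT) and sequenced in single-end reads. The submitters' processing notes name HISAT2 2.0.4, Bowtie2 2.2.5 and RSEM 1.2.12. The deposited table gives expected counts that the authors estimated with RSEM. It also gives FPKM values, which the authors made per effective length and per library total, and TPM values made by the authors from the same estimates. Columns of the authors' own comparisons hold fold changes and p-values and were not used. The table lists no length, so effective length was derived from counts and FPKM.

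Counts were rounded, filtered with filterByExpr, scaled with TMM and fitted for all 6 libraries with edgeR 4.0.16 in R 4.3.3. The quasi-likelihood test was used with Benjamini-Hochberg adjustment at 0.05, and SEs were derived from the fold change and the F statistic. The biological coefficient of variation was 6.74%. The length offset was a lowess fit with a span of 0.3 for each library. Scripts were tested on simulated data. Alternatives were DESeq2 1.42.0 size factors and Wald test, other filters, the 4 compared libraries, Bonferroni adjustment, the length offset, a replicate block, other neighbours, TPM scaling (added after the data were seen) and leaving out each library. Named members were those with the largest rise, the highest and lowest TPM, the lowest p with the offset, the largest distance from length neighbours, the shortest, the longest and the MRPS18 paralogs, and for other lists the 3 with the lowest p. MRPS6, MRPS27, DAP3, PTCD3, RBFA, DDX28 and MTG1 were named after their values were seen. Members and lists were chosen with earlier results of these data known.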

Additional observations from a re-analysis of the deposited data

How the results depend on the processing

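Values are given in the order SS versus control, SS versus SS+NAC, SS+NAC versus control. The counts are genes called, SS versus control, genes called, SS versus SS+NAC, genes called, SS+NAC versus control, and the same for members. With the length offset, 1292 and 2019 genes and 6 and 16 members were called, and member medians were 0.05 and 0.13. With the offset and a replicate block, 851 and 1366 genes and 6 and 7 members were called, with medians of 0.05 and 0.13. TPM scaling, chosen after seeing the data, called 6175, 7352 and 167 genes and 25, 38 and 0 members. In SS versus control 22 of the called members were higher and 3 lower, and in SS versus SS+NAC 33 and 5. The shares were 32.1% and 48.7% of members, beside 44.1% and 52.5% of all tested genes. Member medians were 0.17 and 0.19, beside -0.27 and -0.36 over all tested genes. The cause was not tested. Bonferroni adjustment, which is stricter by construction, called 220, 191 and 40 genes and 0, 1 and 0 members.

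Leaving out each library in turn, with a lone library assumed to vary like the others, gave these ranges for genes called, SS versus control (3118 to 6579), genes called, SS versus SS+NAC (3250 to 6339) and genes called, SS+NAC versus control (98 to 1086). Members called were 38 to 70, 55 to 71 and 0 to 2. Member medians were 0.35 to 0.52, 0.43 to 0.60 and -0.13 to -0.04, and medians over length neighbours 0.03 to 0.06, 0.10 to 0.17 and -0.11 to -0.05. With neighbours nearest in both length and expression, the latter medians were 0.03, 0.10 and -0.04, and with 100 or 400 neighbours they stayed within 0.01 of 0.04, 0.13 and -0.08. Among the named members, signs also turned for MRPL19 in SS versus SS+NAC (-0.01 to 0.03), and in SS+NAC versus control for MRPL14 (-0.19 to 0.05), MRPL22 (-0.06 to 0.02), MRPL37 (-0.14 to 0.03), MRPS14 (-0.11 to 0.06), MRPS18A (-0.11 to 0.09), MRPS18B (-0.09 to 0.12) and MRPS18C (-0.14 to 0.01). The cause was not tested.

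Signs were followed for 28 named members. With the length offset they turned in SS versus control for 23 of all 78 members, and among the named for MRPL19 (0.40), MRPL3 (-0.06), MRPL35 (-0.24), MRPL39 (-0.17), MRPL50 (-0.18), MRPL51 (-0.09) and MRPS17 (-0.19), and in SS versus SS+NAC for 10 of 78, and among the named for MRPL35 (-0.12), MRPL39 (-0.09), MRPL50 (-0.04) and MRPS17 (-0.04). With the offset and replicate block the named values were the same, except -0.08 for MRPL51, and 24 and 10 of 78 turned. Under TPM scaling 13, 16 and 15 of 78 turned, and among the named, in SS versus control, MRPL3 (-0.10), MRPL35 (-0.16), MRPL39 (-0.04), MRPL50 (-0.03) and MRPS25 (-0.22), in SS versus SS+NAC MRPL19 (-0.32), MRPL3 (-0.07), MRPL35 (-0.11), MRPL39 (-0.01) and MRPS14 (-0.03), and in SS+NAC versus control MRPL22 (0.04), MRPS14 (0.03) and MRPS18A (0.05). The cause was not tested.

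Deviations of same-numbered libraries correlated at 0.113 (control and SS), -0.105 (control and SS+NAC) and -0.175 (SS and SS+NAC). With the replicate block, genes called, SS versus control, were 4857, genes called, SS versus SS+NAC, 5136, and genes called, SS+NAC versus control, 211, with 61, 66 and 0 members.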
